A study of Homo sapiens with 12 samples.

Results

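The 6 genes that encode the canonical prefoldin complex, PFDN1, PFDN2, VBP1 (also called PFDN3), PFDN4, PFDN5 and PFDN6, were matched by Ensembl identifier among 58051 genes of the deposited count tables. All 6 were among the 27915 genes with enough counts to be tested. Their 45 annotated transcripts were matched by identifier among 173259 transcripts, and 36 of the 45 were tested. The cells were HCT116, a human colon carcinoma line. All cells had received an siRNA, a double-stranded RNA made to direct cleavage of messenger RNA with its sequence, and from 24 h later were starved of serum for 48 h. The siRNA was siControl, siPFDN2 or siPFDN5, and cells were taken either before serum was given back or 90 min after, which makes 6 groups of 2 libraries. No untransfected cells and no cells kept in serum were among the groups, and each target had a single siRNA sequence. Nothing in the labels says whether the 2 libraries of a group came from separate cultures, so p-values measure the spread between these libraries, which may be technical.

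Prefoldin is a jellyfish-shaped chaperone of the cytosol whose subunits hold unfolded actin and tubulin chains at the ends of long coiled coils and hand them to the chaperonin TRiC. VBP1 and PFDN5 are its alpha-type subunits, and PFDN1, PFDN2, PFDN4 and PFDN6 are its beta-type subunits. PFDN5 is also known as MM-1, a protein that binds the transcription factor MYC, and PFDN2 and PFDN6 also belong to a second, prefoldin-like complex built around URI1. The RNA measured here does not show how much of each protein was present.

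The sequences of the siRNAs and of their sites are shown because they define which transcripts each one matches. The siRNA strands are written as the labels give them, in the sense of the messenger RNA, with capitals on the 7 bases that pair with the guide's seed (guide bases 2 to 8).
siPFDN2: cagccuagugaUCGAUACa
siPFDN5: agagaagacagCUGAGGAu
A search of the annotated transcripts of 19684 protein-coding genes found the whole siPFDN2 sequence in PFDN2 and in no other gene, the whole siPFDN5 sequence in PFDN5 and in no other gene, and that of siControl in none. Both sites lie in coding sequence and run across an exon junction, so that the unspliced RNA does not hold them in 1 piece. The siPFDN2 site spans exons 2 and 3 of transcript PFDN2-201 and the siPFDN5 site spans exons 4 and 5 of PFDN5-202. In the coding sequence around them, with the site in capitals, these windows of 59 bases lie on GRCh38 at chr1:161102136-161102309 on the minus strand and at chr12:53297898-53298076 on the plus strand, each with an intron spliced out.
PFDN2-201: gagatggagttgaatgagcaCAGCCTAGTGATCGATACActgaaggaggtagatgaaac
PFDN5-202: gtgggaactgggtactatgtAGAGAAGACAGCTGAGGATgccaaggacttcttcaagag
The 7-base seed match of siPFDN2 occurred in 2.55% of the genes searched and in no subunit other than PFDN2. That of siPFDN5 occurred in 41.7% of the genes, in 5 of 7 PFDN1 transcripts, 2 of 5 PFDN4 transcripts and 1 of 7 PFDN6 transcripts, and in none of PFDN2 or VBP1. A seed match in a transcript is a description of its letters, not a binding site.

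Counts over whole gene bodies, introns included, came to between 59784425 and 136504590 per library. The second siPFDN2 library before serum stood apart from the other 11. Its counts rose with the GC content of the genes, with a rank correlation of 0.69 across genes between GC content and the deviation from the mean library, against -0.28 to 0.13 in the others. The 2 libraries of that group differed with an SD of 0.68 on the log2 scale over 12113 genes, against 0.12 to 0.30 in the other groups. Results that rest on it are therefore also given without it, which leaves 1 library in its group, assumed to vary like the others. All 8 epithelial markers were expressed in each library, with median exon levels in CPM (the counts-per-million scale, relative to the scaled total of the library) from 85.1 (CDH1) to 1034 (KRT8). Of 5 colon markers, CDX1, LGALS4 and CDH17 were at 0 or near it (medians 0, 0.04 and 0.14), while CDX2 and VIL1 were expressed (medians 8.97 and 18.4). Of 7 markers of other cell types, 5 had medians under 1, among them PTPRC and CD3E of blood cells, and COL1A1 was highest at a median of 8.23.

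PFDN2 showed the widest differences among the subunits, and not only where it was the target. Its gene-body level was 11.5 and 11.2 CPM in the siControl libraries before serum and 19.5 and 16.3 after it. In siPFDN2 it was 7.55 and 8.49 before serum and 8.73 and 9.47 after. In siPFDN5 it was 21.8 and 21.1 before serum and 23.1 and 28.7 after. At each time the 2 siPFDN2 libraries were the lowest and the 2 siPFDN5 libraries the highest, with no overlap between any pair of groups.

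The difference in PFDN2 between the siPFDN5 and siPFDN2 libraries passed the test at both times. The gene was 2.67-fold higher in siPFDN5 than in siPFDN2 before serum (a log2 fold change of 1.42 with an SE of 0.16 and an adjusted p of 0.0207) and 2.84-fold higher after serum (1.51, SE 0.17, adjusted p = 0.0398). PFDN2 was the only subunit of the 6 called in each of these comparisons, at an adjusted p under 0.05 over all 27915 genes, where 0.0788% of all genes were called before serum and 0.0179% after. Leaving out either siPFDN5 library before serum or either siPFDN2 library after serum ended the call before serum (log2 fold changes 1.39 to 1.44), and the call after serum held in 3 of the 12 fits that leave out 1 library, 2 of them without a siPFDN2 library before serum and the other without the first siPFDN5 library after serum.

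Against siControl, PFDN2 in siPFDN2 stood at 70.9% of the control mean before serum (log2 fold change -0.50, 95% interval -0.85 to -0.14) and 50.8% after (-0.98, interval -1.33 to -0.62). Neither passed the test (adjusted p = 0.442 and 0.772), and edgeR's quasi-likelihood test called no subunit in either comparison, where it called 0% of all genes. At an unadjusted p under 0.05, PFDN2 was among 3156 genes (11.3%) before serum and among 1747 genes (6.26%) after. DESeq2 called 20 genes before serum (0.102%), no subunit among them, and after serum a single gene (0.00206% of those tested), which was PFDN2 (-0.94, adjusted p = 0.00771). Without the second siPFDN2 library before serum, PFDN2 was lower than in siControl after serum (-0.97, adjusted p = 0.00663, with 0.568% of all genes called) but was not called before it (-0.58, adjusted p = 0.345, with 0.0241% called). In exon counts the values were 59.4% of control before serum and 46.6% after. In these bulk libraries a large loss of PFDN2 RNA in some cells and a smaller loss in all cells cannot be told apart. The exon-count difference before serum was -0.75 with all libraries and passed without that library (-0.77, SE 0.15, adjusted p = 0.0381, with 0.402% of genes called).

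In siPFDN5, whose siRNA matches neither PFDN2 transcript, PFDN2 stood at 189% of control before serum (log2 fold change 0.92, interval 0.56 to 1.28) and 145% after (0.53, interval 0.18 to 0.89). The test with all libraries did not call it (adjusted p = 0.104 and 0.108). It was called higher at both times without the second siPFDN2 library before serum, with adjusted p = 0.00188 and 0.00519 (6.96% and 23.9% of all genes called), at both times in DESeq2 (1.43% and 7.76%) and after removal of each library's GC trend (0.652% and 13.5%). Over the 24 alternatives, the value before serum ran from 0.84 to 1.12 and was called in 11, with adjusted p from 6.88e-05 to 1. Exon counts gave 212% and 151% of control.

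PFDN5, the target of the other siRNA, was lowest in the siPFDN5 libraries before serum but not after it. Its gene-body level was 76.8 and 68.9 CPM in siControl before serum and 67.9 and 74.0 after. In siPFDN2 it was 76.2 and 66.9 before and 81.8 and 81.1 after. The libraries labelled siPFDN5 had 41.0 and 44.2 CPM before serum and 67.5 and 68.6 after. Before serum they lay below all other libraries, and after serum they overlapped the siControl libraries, so that the gene-body level did not set the label apart at that time.

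The siPFDN5 libraries before serum stood at 58.4% of control for PFDN5 (log2 fold change -0.77, SE 0.14, interval -1.07 to -0.48). With all libraries this did not pass the test (adjusted p = 0.104), and no subunit was called, where 0.00716% of all genes were. Without the second siPFDN2 library before serum PFDN5 was called lower (-0.78, adjusted p = 0.000853), and it was called in 11 of 24 alternatives. After serum PFDN5 stood at 95.9% of control (-0.06, interval -0.36 to 0.24), and no subunit was called, where 0.00358% of all genes were. In exon counts it was 78.0 and 79.6 CPM in siPFDN5 after serum against 87.3 and 90.1 in siControl, which did not overlap. That difference was -0.17 on the log2 scale (interval -0.45 to 0.10) and was not called. In siPFDN2, PFDN5 differed from control by -0.03 before serum (interval -0.32 to 0.27) and by 0.20 after it (interval -0.10 to 0.50).

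**Figure D1:**
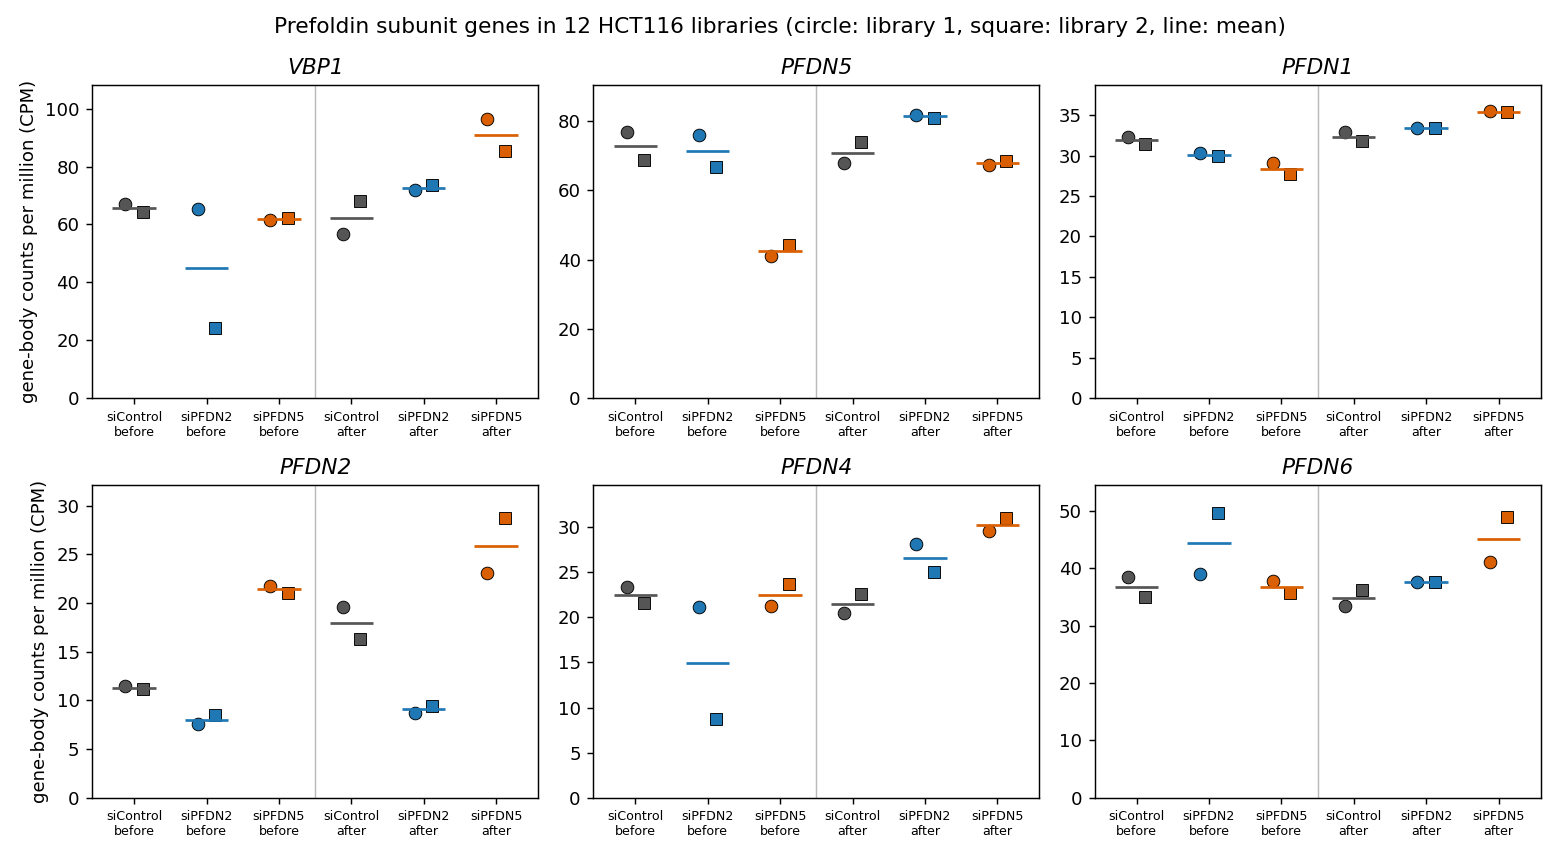
Gene-body CPM (vertical axis, from 0) of the 6 subunits in 12 libraries, by siRNA and time relative to serum, with a circle for library 1, a square for library 2 and a line at the mean of the group. PFDN2 lies between 7.55 and 9.47 in the 4 siPFDN2 libraries and at or above 21.1 in the 4 siPFDN5 libraries, and PFDN5 is lowest in siPFDN5 before serum, while VBP1 and PFDN4 are lowest in 1 siPFDN2 library.

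VBP1, the other alpha-type subunit, lay between 56.6 and 73.5 CPM in 9 of the 12 libraries. The exceptions were both siPFDN5 libraries after serum, at 96.6 and 85.4 CPM, and the second siPFDN2 library before serum, at 24.3 CPM beside 65.3 CPM in the first. PFDN4 repeated this shape. It had 29.6 and 31.0 CPM in siPFDN5 after serum against 20.5 and 22.6 in siControl after serum, and 8.71 CPM in the deviating library beside 21.1 CPM in its partner. The transcripts of these genes are the poorest in GC among the subunits, 35.3% for PFDN4 and 38.2% for VBP1, against a median of 48.2% over the genes tested. PFDN6, the richest at 58.4%, had its highest level in that same library, at 49.7 CPM. The low values of VBP1 and PFDN4 in siPFDN2 before serum (68.2% and 66.4% of control) rested on 1 library. Without it the log2 differences went from -0.55 to -0.01 for VBP1 and from -0.59 to -0.09 for PFDN4. The part of GC content in these values was not tested.

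**Figure D2:**
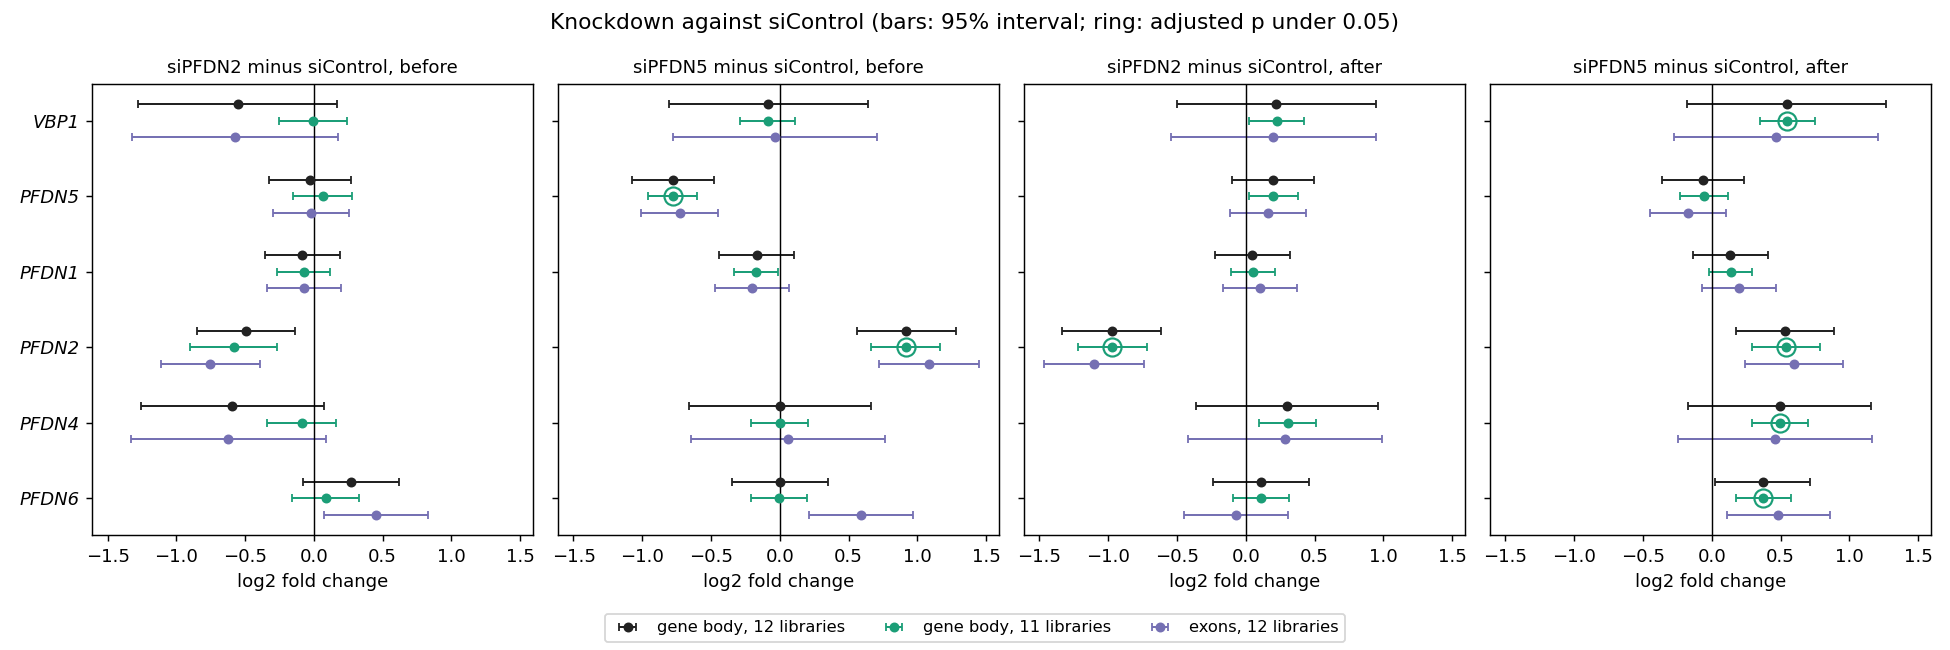
Log2 fold change of each subunit in siPFDN2 and in siPFDN5 against siControl, with bars for the 95% interval and a ring where the adjusted p was under 0.05, from gene-body counts of 12 libraries, gene-body counts of 11 libraries (without the second siPFDN2 library before serum) and exon counts of 12 libraries. No ring stands on the values from 12 libraries, and with 11 libraries 4 subunits are ringed as higher in siPFDN5 after serum.

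After serum, PFDN2, VBP1, PFDN4, PFDN6 and PFDN1 lay higher in both siPFDN5 libraries than in both siControl libraries, while PFDN5 overlapped. The share of all genes that lay higher in this way was not counted. With 2 libraries per group this separation is a description, not a result about the subunits. The differences were 0.53 for PFDN2, 0.55 for VBP1 (SE 0.33), 0.49 for PFDN4 (SE 0.30), 0.37 for PFDN6 (SE 0.16) and 0.13 for PFDN1 (SE 0.12) on the log2 scale. None was called with all libraries. With scaling by library size alone, which lowers the median of all genes in this comparison by 0.16, the value of PFDN1 was -0.03 and the others stayed above 0. Without the second siPFDN2 library before serum, which is not in this comparison but widens the shared estimate of the spread, the first 4 were called higher, with adjusted p = 0.00519, 0.00166, 0.00303 and 0.0122, where 23.9% of all genes were called. After removal of the GC trend 3 were called (PFDN2, PFDN4 and PFDN6), where 13.5% of all genes were. The median over the 6 subunits, with all libraries, was 0.43, against -0.04 over all genes tested.

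PFDN1, a beta-type subunit, varied least. Its gene-body level ran from 27.8 to 35.5 CPM over the 12 libraries, and no comparison of siPFDN2 or siPFDN5 with siControl differed by more than 0.17 on the log2 scale. The widest was -0.17, before serum in siPFDN5 (interval -0.44 to 0.10). PFDN6, the other beta-type subunit shared with the prefoldin-like complex, gave different answers in the 2 tables. In siPFDN5 before serum its gene-body log2 difference was 0.00 (interval -0.35 to 0.35), while in exon counts it was 0.59 (interval 0.21 to 0.97). The exon level of PFDN6 was 27.1 and 24.3 CPM there against 17.8 and 16.3 in siControl before serum, without overlap. With all libraries the exon-count difference was not called (adjusted p = 0.385). The exon-count fit without the second siPFDN2 library before serum, which called it, was added after seeing the data.

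The counts of PFDN6 are uncertain because its body, on chromosome 6 from 33289302 to 33298401, lies to 76.6% under genes of the opposite strand, and the counting used no strand. RGL2 covers 74.2% of it and WDR46 2.48%, and 32.2% of its exon bases are also exon bases of these neighbours. A median of 1544 of 3443 gene-body counts fell on PFDN6 exons. PFDN1, on chromosome 5 from 140245039 to 140303121, lies to 63.7% under CYSTM1, but only 1.81% of its exon bases are shared. PFDN2 shares 26 bases with NIT1, PFDN4 shares none with any gene, and 19.1% of the PFDN5 body lies under AC073611.1. Of the annotated pseudogenes, PFDN1P1 had at most 10 counts in a library and PFDN1P2 at most 2.

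PFDN5 was higher after serum than before it in the libraries labelled siPFDN5, whose level after serum overlapped that in siControl. PFDN5 was 1.60-fold higher after serum in siPFDN5 (log2 fold change 0.68, SE 0.14, adjusted p = 0.0156) and was the only subunit called there, where 12.2% of all genes were called. It stayed called in 20 of 24 alternatives, with adjusted p from 2.72e-06 to 0.168, and the 4 fits that lost the call each left out a siPFDN5 library (0.63 to 0.74). In exon counts the rise was 0.55 (SE 0.13, adjusted p = 0.0393), with 4.22% of genes called. In siControl the PFDN5 response was -0.04 (interval -0.33 to 0.26) and in siPFDN2 it was 0.19 (interval -0.11 to 0.49). The difference of the siPFDN5 response from the siControl response was 0.71 (SE 0.19), which did not pass with all libraries (adjusted p = 0.0987) and passed in 7 of 24 alternatives, among them DESeq2, removal of the GC trend and the fit without the second siPFDN2 library before serum (0.72, adjusted p = 0.00575). Of all genes 8.68% were called with the GC trend removed and 21.8% without that library. With all libraries edgeR's test called no subunit in that difference and 0% of all genes, against 5847 genes (20.9%) at an unadjusted p under 0.05 and 1708 genes (6.77%) in DESeq2.

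PFDN2 was the subunit with the widest response to serum in siControl, 1.58-fold (log2 fold change 0.66, SE 0.16). It missed the threshold in gene-body counts (adjusted p = 0.0574), with no subunit called where 2.87% of all genes were, and rose in exon counts (0.75, SE 0.16, adjusted p = 0.0425), where 2.13% of genes were called. It was also called without either siPFDN2 library before serum (0.66 in both fits, with 9.79% of all genes called without the first and 9.95% without the second), and it was called in 10 of 24 alternatives. In siPFDN2 its response was 0.18 (interval -0.18 to 0.54) and in siPFDN5 0.27 (interval -0.08 to 0.63). The differences of these responses from that in siControl, -0.48 (SE 0.23) and -0.39 (SE 0.23), were not called. The siPFDN2 difference had 0% of all genes called, 1841 (6.6%) at an unadjusted p under 0.05 and 2 in DESeq2 (0.00412%), with no subunit among the 2.

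None of the other subunits was called in siControl, with gene-body log2 values between -0.08 and 0.02. For PFDN6 the direction depended on the table, with -0.08 (interval -0.42 to 0.27) in gene-body counts and 0.34 (interval -0.04 to 0.72, adjusted p = 0.569) in exon counts. In siPFDN2 no subunit was called, where 3.26% of all genes were. The values of VBP1 (0.70, SE 0.33) and PFDN4 (0.83, SE 0.30) in siPFDN2 went to 0.15 and 0.33 without the second library before serum. In siPFDN5 all 6 subunits had a positive response, 0.27 to 0.68, and without that library 5 were called higher: PFDN1 (0.33), VBP1 (0.56), PFDN4 (0.43), PFDN5 (0.68) and PFDN6 (0.30), where 36.3% of all genes were called. With the GC trend removed these were PFDN1, VBP1, PFDN4 and PFDN5, where 29.3% were called. With all libraries the list median was 0.37, against -0.03 over all genes, and scaling by library size alone lowered the median of all genes here by 0.15 and left all 6 values above 0. The comparisons before serum, after serum and across serum share libraries, so that these values are not independent of those against siControl.

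**Figure D3:**
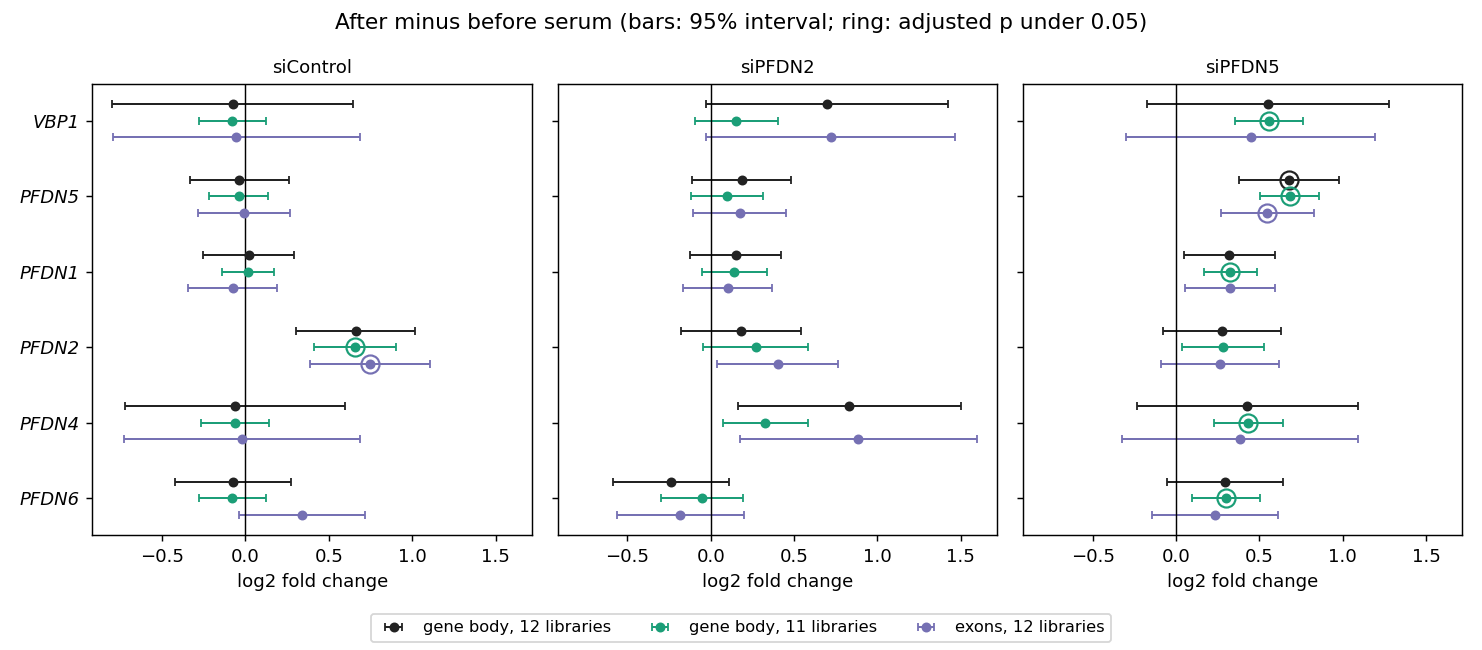
Log2 fold change of each subunit from before to 90 min after serum in each siRNA, with bars for the 95% interval and a ring where the adjusted p was under 0.05, for the same 3 sets of counts. PFDN5 is ringed in siPFDN5 in all 3 sets, PFDN2 is ringed in siControl in 2 of 3, and the long bars of VBP1 and PFDN4 shorten when the deviating library is left out.

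Counts outside exons behaved differently from exon counts in PFDN2. Exon counts come mainly from spliced RNA, and the remainder of the gene-body counts comes from introns. In siPFDN2 29.1% and 37.4% of the gene-body counts before serum and 25.8% and 18.2% after serum lay outside exons. In siControl these shares were 21.1% and 19.2% before serum and 19.4% and 14.4% after, and in siPFDN5 13.03% and 13.92% before and 6.999% and 5.338% after. The share was thus highest in siPFDN2 and lowest in siPFDN5 at both times, with an overlap of siPFDN2 and siControl after serum. Over whole libraries the order before serum was not the same: 22.8% and 25.9% of all counts lay outside exons in siPFDN5, the highest of any group. After serum the whole-library shares were 20.9% and 19.3% in siPFDN2, 20.6% and 16.2% in siControl and 17.2% and 14.8% in siPFDN5, so that the order of the group means was that of the PFDN2 shares. Their part in the PFDN2 shares was not tested.

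The counts behind these shares were small. PFDN2 had 208 and 358 counts outside exons in siPFDN2 before serum, 225 and 229 in siControl and 178 and 198 in siPFDN5. Its exon counts in the same libraries were 506 and 599, 839 and 963, and 1188 and 1224. In a test of whether counts outside exons and in exons changed by different amounts, over 17390 genes, PFDN2 was called in siPFDN5 minus siPFDN2 before serum: its counts outside exons changed less than its exon counts, by -1.79 on the log2 scale (SE 0.24, adjusted p = 0.0184), with 0.196% of genes called. The same quantity after serum was -1.65 (SE 0.25, adjusted p = 0.0737), where 0.00575% of genes were called. Without the second siPFDN2 library before serum the call moved, with adjusted p = 0.127 before serum (-1.61, with 0.00575% of genes called) and 0.0397 after (-1.65, with 0.0115% called). PFDN2 was then also called in siPFDN5 minus siControl after serum (-0.84, adjusted p = 0.0247), where 16.7% of genes were called. No other subunit was called in either fit, while with all libraries 4.91% of genes were called in siPFDN5 minus siControl after serum and 4.59%, 4.69% and 20.8% in the serum responses in siControl, siPFDN2 and siPFDN5. In PFDN5 exons make up 81.25% of the body and at most 0.42% of its counts lay outside them, too few to compare.

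**Figure D4:**
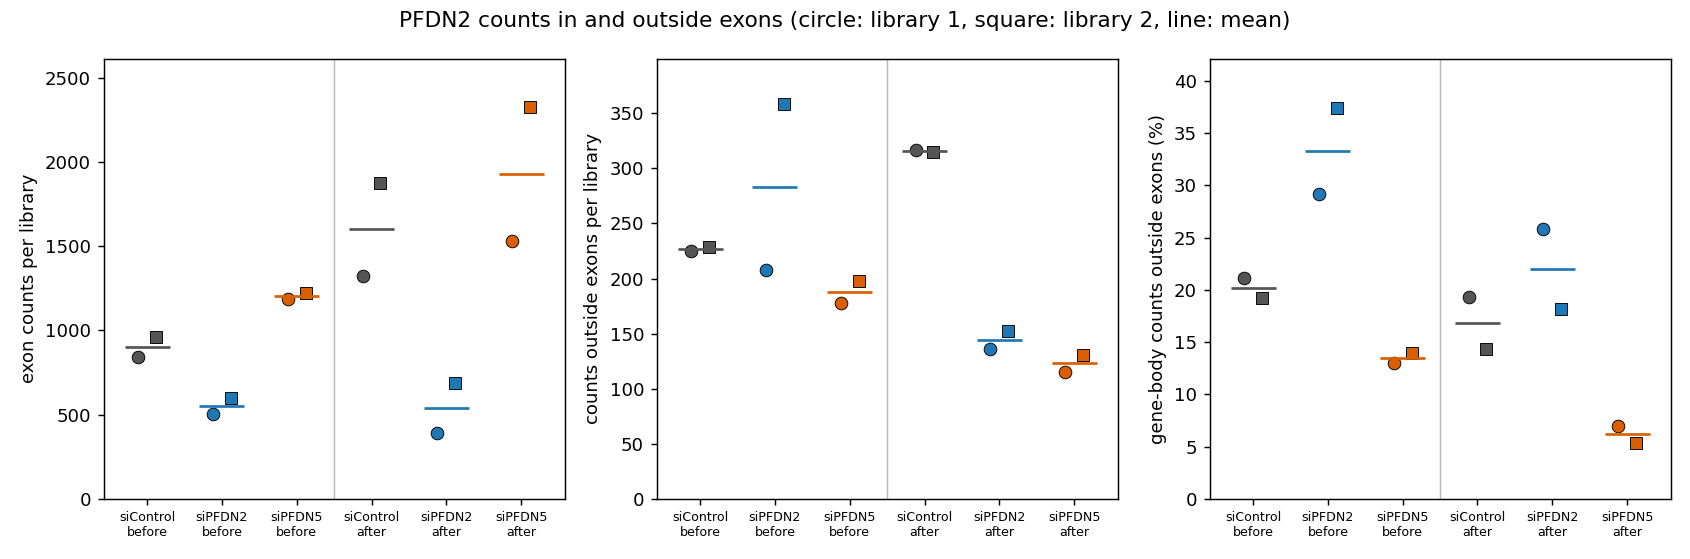
PFDN2 counts per library in exons, outside exons, and the share of gene-body counts outside exons in percent, by siRNA and time relative to serum, with a circle for library 1, a square for library 2 and a line at the mean of the group. Exon counts are lowest in siPFDN2 and the share outside exons is lowest in siPFDN5, at 5.338% and 6.999% after serum. The counts in the left and middle plots are not scaled for library size.

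Transcript estimates placed nearly all PFDN2 signal on PFDN2-201, which holds the siRNA site and had a median of 98.8% of the gene's estimated counts. PFDN2-201 had 12.5 and 12.4 CPM in siControl before serum, 6.97 and 6.22 in siPFDN2 and 27.0 and 26.2 in siPFDN5. PFDN2-202, a processed transcript without the site, did not exceed 0.43 CPM in any library. For PFDN5, 11 of 20 annotated transcripts hold the site. Together these had 103 and 95.5 CPM in siControl before serum and 56.1 and 60.6 in siPFDN5. The 9 without it had 3.05 and 2.77 CPM in siControl and 3.01 and 2.99 in siPFDN5. After serum those with the site had 93.5 and 102 CPM in siControl and 90.0 and 92.9 in siPFDN5, which did not overlap, and those without it had 2.74 and 2.49 against 3.73 and 4.17.

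The main coding form PFDN5-202 carried a median of 83.1% of the estimated counts of its gene. Its log2 difference in siPFDN5 before serum was -0.75 (SE 0.16), that of PFDN5-203 was -1.43 (SE 0.43) and that of PFDN5-214 was -1.19 (SE 0.43), and all of these hold the site. PFDN5-209, a retained-intron transcript without it, differed by 0.31 (SE 0.26). No transcript of any subunit was called in any comparison with all libraries. The shares of all transcripts called were 0.172%, 0.199% and 0.258% in the serum responses in siControl, siPFDN2 and siPFDN5, 0.00112% in siPFDN2 minus siControl after serum and 0% in the other comparisons. Changes of 4-fold were planted in simulated transcripts with the spread of these libraries, for siPFDN5 minus siControl before serum only. Of these 0% were called, so that the absence of calls in that comparison carries no information. The other comparisons were not simulated, so what an absence of calls means there is not known. Without the second siPFDN2 library before serum PFDN5-202 (0.67, adjusted p = 0.023) and PFDN5-203 (1.23, adjusted p = 0.0448) rose with serum in siPFDN5, where 2.19% of all transcripts were called.

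Among the remaining subunits, VBP1-201 had a median of 97.5% of the estimated counts of VBP1, and PFDN1-201 89.6% of those of PFDN1. PFDN4 was carried mostly by PFDN4-202, annotated as a target of nonsense-mediated decay, with a median of 65.7%, and to 29.1% by the coding form PFDN4-201. In the deviating siPFDN2 library before serum the share of PFDN1-201 was 41.9%, its lowest. Transcript estimates summed to between 1.01 and 1.03 times the exon counts (medians over libraries) in the other subunits but to 0.17 times in PFDN6, so the transcript values of PFDN6 are not used here.

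Levels can be compared between genes only per length, and the order depended on the length used. In TPM, a level per length that adds up to the same total in every library, from exon counts over the union of all annotated exons, VBP1 was highest at a median of 55.8 (20.1 to 60.5 over the 12 libraries). PFDN5 followed at 35.9 (24.2 to 41.1), then PFDN2 at 29.2 (13.9 to 58.3), PFDN1 at 22.4 (19.7 to 25.2), PFDN4 at 18.4 (6.59 to 21.9) and PFDN6 at 10.3 (7.68 to 14.4). The ranges of neighbours in this order overlapped in every case. Over the longest coding transcript, which is 847 bases in PFDN5 against 3380 for the union of its exons, PFDN5 was highest in all 12 libraries at a median of 377 TPM (238 to 416), above VBP1 at 173 (62.9 to 209), and these ranges did not overlap. Transcript estimates also put PFDN5 first, at 335 TPM. The form of 847 bases, PFDN5-214, carried a median of only 1.38% of the gene's estimated counts. The main form PFDN5-202, with a median of 83.1%, is 586 bases long. The rank of PFDN2 differed between the siRNAs: by the longest coding transcript it was last in the first siPFDN2 library before serum and the third highest in all 4 siPFDN5 libraries.

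**Figure D5:**
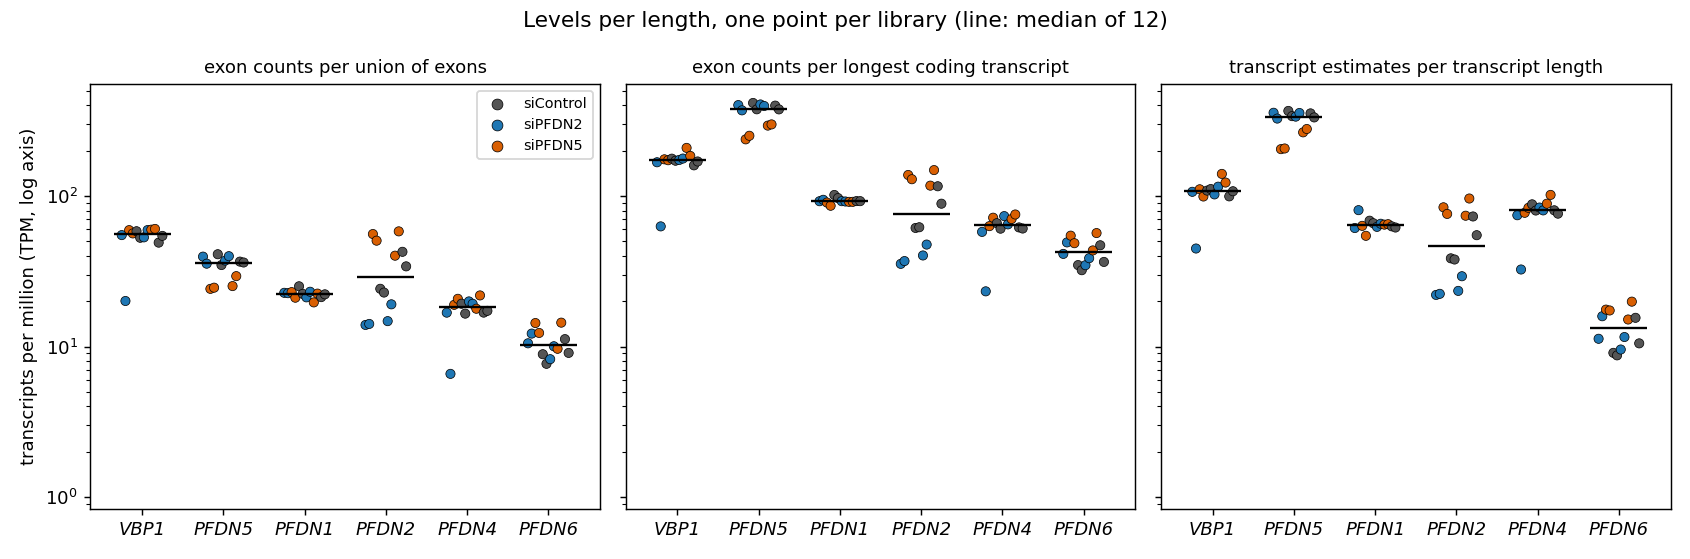
TPM on a log axis for each subunit by 3 choices of length, with 1 point per library coloured by siRNA and a line at the median of 12. VBP1 is highest over the union of exons and PFDN5 over the longest coding transcript and in transcript estimates, and PFDN2 spreads most between the siRNAs.

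Across the 12 libraries VBP1 and PFDN4 had the most alike patterns of any pair of subunits. The root mean square (RMS) difference of their centred log2 CPM was 0.10, against 0.18 to 0.85 for the other 14 pairs. Both share the low value in the deviating library, which weighs heavily in this measure. Over all genes with a mean log2 CPM of at least 3, the nearest to VBP1 was MRPL50 (RMS difference 0.05) and the nearest to PFDN5 was GINS3 (0.11). The nearest to PFDN1 was UBE2G2 (0.05). The nearest to PFDN2, CPA4, was 0.33 away. The measure is not scaled to how much a subunit varies. The RMS deviation of a subunit from its own mean was 0.64 for PFDN2, 0.47 for VBP1, 0.31 for PFDN5 and 0.10 for PFDN1. These distances therefore do not rank the subunits by likeness. All 12 libraries enter each value, and the measure is a description with no test.

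The partners of prefoldin were counted in 3 lists. Of the 8 subunits of TRiC, which takes substrates from prefoldin, 4 rose with serum in siPFDN5 with all libraries, where 5.72% of all genes were called higher (CCT2, CCT3, CCT5 and CCT7, by 0.51 to 0.73), and the median of the list was 0.51 against -0.03 over all genes. Of 19 genes for actins, tubulins and their folding cofactors, 10 rose there, among them ACTB (0.77), ACTG1 (0.88) and TUBB2A (1.29), with a list median of 0.55. Tubulin and actin genes have near-identical relatives, so that their counts may be split or shared. These list values come from gene-body counts. In siPFDN5 22.8% and 25.9% of all counts lay outside exons before serum, against 17.2% and 14.8% after. The part of this shift in the rises of the lists was not tested. None of the 9 subunits of the prefoldin-like and R2TP complexes was called in any of the 11 comparisons, where 0% to 12.2% of all genes were. No TRiC, actin or tubulin gene was called in the other 10, where 0% to 3.26% of all genes were. With lists this short and shares this low, these absences are not a result about the lists. Without the second siPFDN2 library before serum, the median of the TRiC list in siPFDN5 minus siControl after serum was 0.46, against -0.05 over all genes. The lists were chosen with earlier results of these data known, so that their counts and medians are a description.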

How the data were processed

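Total RNA of 12 libraries was sequenced after reverse transcription with random primers and depletion of 18S rRNA, per the labels' protocols. The authors deposited 2 tables of read counts per gene, over gene bodies and over exons, made with featureCounts 1.5.2 on Ensembl release 87 of GRCh38, per the file headers. A fragment over several genes was counted for each, and no strand option was set. Per-sample files named for TPM hold estimated counts per transcript, as their deposited values show, and these were rounded for tests. The submitters' processing notes name HISAT2, featureCounts 1.5.2 and kallisto 0.43 without their roles. Another 6 columns of each count table match no sample and were not used.

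Groups came from the sample titles. Gene-body counts were filtered by filterByExpr (27915 genes) and scaled by TMM, and 6 group means were fitted with edgeR 4.0.16 (robust quasi-likelihood test, two-sided, R 4.3.3) in 11 comparisons. Adjusted p is by Benjamini-Hochberg over all genes tested, and a gene is called at an adjusted p under 0.05. SE and 95% intervals derive from the fold change, the F statistic and its degrees of freedom. Counts outside exons are gene-body minus exon counts, tested as an interaction with the library as a block. Transcripts, GC content and lengths came from GENCODE release 29, and 19 of 20 listed cofactor and client genes were found by identifier. On simulated counts, 56% of 2-fold and 97% of 4-fold changes between siPFDN5 and siControl before serum were called (100 planted each, 27915 genes). In transcripts 0% of either size was called (89619 transcripts), against 65% and 99% with a narrow constant spread. In the interaction test 12% and 82% were called (17390 genes).

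The named genes are the 6 subunits, their transcripts, overlapping genes, pseudogenes, the nearest genes by pattern and 3 lists. The members and lists were chosen with earlier results of these data known. Results were recomputed with DESeq2 1.42.0, no scaling beyond library size, upper-quartile scaling, unfiltered genes, exon counts, transcript sums, a replicate block, removal of each library's GC trend, only the libraries compared, and leaving out each library. Exon counts with the GC trend removed, exon counts without the second siPFDN2 library before serum, and transcript-based TPM were added after seeing the data.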

Additional observations from a re-analysis of the deposited data

How the results depend on the processing

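With all libraries, the number of subunits called was 1 in siPFDN5 minus siPFDN2 before serum, 1 in the same comparison after serum, 1 in the serum response in siPFDN5 and 0 in the other 8 comparisons. Of 266 such counts under the alternatives, 94 moved. Where no share of all genes called stands beside a count or a range in this section, it describes the fit. It is then not a result about the subunits. Scaling by library size only gave 0 in siPFDN5 minus siPFDN2 before serum and 0 after, and upper-quartile scaling gave 0 after serum. Exon counts and transcript sums each gave 1 in the serum response in siControl.

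In siPFDN5 minus siControl before serum the count was 2 with DESeq2, with no filter, with the GC trend removed and with only the libraries compared (1.43%, 2.13%, 0.652% and 19.5% of all genes called), 2 in exon counts with the GC trend removed and 3 in exon counts without the second siPFDN2 library before serum (the last 2 settings were chosen after seeing the data). After serum it was 1 with DESeq2, 3 with the GC trend removed, 2 with only the libraries compared, and 3 and 5 in the added exon settings (7.76%, 13.5%, 7.81%, 13.3% and 26.5% of all genes). In siPFDN2 minus siControl it was 1 in exon counts with the GC trend removed at both times. After serum it was also 1 with no filter and 1 with DESeq2, which called 0.00206% of all genes. In siPFDN5 minus siPFDN2 before serum it was 2 with DESeq2, no filter, the GC trend removed and both added exon settings, and 0 with only the libraries compared. After serum it was 4 with only the libraries compared and 3 in exon counts without that library (22.7% and 7.78% of all genes).

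In the serum response in siControl the count was 1 with DESeq2, the GC trend removed, only the libraries compared and both added exon settings. In siPFDN2 it was 1 with DESeq2, 2 with no filter and 2 in exon counts with the GC trend removed. In siPFDN5 it was 2 with no filter, 4 with the GC trend removed, 6 with only the libraries compared, and 3 and 4 in the added exon settings, where 11%, 29.3%, 54.5%, 22.2% and 32.8% of all genes were called. In the difference of the siPFDN5 response from that in siControl it was 1 with DESeq2, 1 with the GC trend removed, 3 with only the libraries compared and 4 in exon counts without that library (6.77%, 8.68%, 14.9% and 18.7% of all genes). The cause of these moves was not tested.

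Leaving out each library in turn gave 0 to 4 calls in siPFDN2 minus siControl before serum and 0 to 1 after, 0 to 2 in siPFDN5 minus siControl before serum and 0 to 4 after, and 0 to 5 in siPFDN5 minus siPFDN2 before serum and 0 to 1 after. The range was 0 to 1 in the serum response in siControl, 0 to 4 in siPFDN2 and 0 to 5 in siPFDN5, and 0 to 3 and 0 to 4 in the differences of the siPFDN2 and siPFDN5 responses from siControl. A group left with 1 library is assumed to vary like the others. In the comparisons that hold the siPFDN2 libraries before serum, the upper ends came from the fit without the first of these libraries. That fit leaves the library with the GC trend alone in its group. Over the fits, the lowest differences of siPFDN2 from siControl before serum were -1.45 for VBP1 and -1.38 for PFDN4. The median biological coefficient of variation was 17.4% with all libraries, 12.5% without the second siPFDN2 library before serum and 12.7% without the first, so that either omission narrowed the shared spread. The test of counts outside exons against exon counts called PFDN2 in 1 comparison, and in 2 without that library. No transcript of a subunit was called with all libraries, and 2 were without it.

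Same-numbered libraries of 15 pairs of groups deviated together with r from -0.32 to 0.59 (median -0.05), over 0.1 in 4 pairs. With 2 libraries per group these values do not decide whether the replicate numbers pair the libraries. A replicate block gave 0 calls in siPFDN5 minus siPFDN2 after serum. The replicate block with the GC trend removed gave 2 calls in siPFDN5 minus siControl before serum, 2 after serum, 2 in siPFDN5 minus siPFDN2 before serum, 1 in the serum response in siControl and 4 in siPFDN5.

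Of 1584 values of single subunits, 89 changed sign, 4 of them with an unadjusted p under 0.05 in either fit. These were all PFDN6. Its serum response in siControl was -0.08 with all libraries and 0.59 in transcript sums. The transcript sums of PFDN6 came to a median of 0.17 times its exon counts, so the value of 0.59 is listed only as a sign change. The same response was 0.37 in exon counts with the GC trend removed and 0.33 in exon counts without the second siPFDN2 library before serum. In siPFDN5 minus siPFDN2 before serum, PFDN6 was -0.27 with all libraries and 0.49 in exon counts with the GC trend removed.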
